A study of Mus musculus with 6 samples.

Results

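The genes described here make, break down and bind hyaluronan, and were followed in sorted knee chondrocytes from mouse embryos and adult mice. They are 10 genes chosen by name out of the 22032 gene rows of the deposited matrix. They comprise the synthases *Has1*, *Has2* and *Has3*, the hyaluronidases *Hyal1* and *Hyal2*, the related *Cemip* and *Tmem2*, the receptor *Cd44*, and the secreted matrix organisers *Tnfaip6* and *Ptx3*. All 10 were found, *Tmem2* under its newer symbol *Cemip2*. The study profiled 6 samples, 3 labelled Mouse Embryonic Cartilage and 3 labelled Mouse Adult Cartilage, which the design text calls biological replicates. Per the study's methods the embryonic cells came from embryos of day 16.5, where the labels write 16.5 wks. The adult cells came from 2 month old male B6 animals. No genetic change or treatment is named for either stage, and how many animals went into a sample was not given in the sources used here. Cells of both stages were digested out of the tissue and sorted by flow cytometry as lineage negative, ALP negative and BMPR1B positive. BMPR1B is a bone morphogenetic protein receptor that marks articular chondrocytes and their precursors, and ALP is alkaline phosphatase.

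Hyaluronan is a long unsulfated sugar chain that is spun out through the plasma membrane by the HAS enzymes from UDP-glucuronic acid and UDP-N-acetylglucosamine. In cartilage it is the backbone to which aggrecan is fixed by link protein, and CD44 tethers these aggregates to the chondrocyte surface. Chains are cut by HYAL2 near the cell surface and by HYAL1 in lysosomes, while CEMIP and TMEM2 are related proteins with roles in breakdown outside the cell. TNFAIP6, also called TSG-6, moves heavy chains from inter-alpha-inhibitor onto hyaluronan, and the pentraxin PTX3 links such decorated chains together, as in the matrix around the ovulated oocyte.

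Genes of every role changed between the stages, those of breakdown in both directions. In the adult samples the synthase *Has2*, the receptor *Cd44*, the matrix organisers *Tnfaip6* and *Ptx3* and the breakdown gene *Tmem2* were lower, while *Cemip* and *Hyal2* were higher. TPM, the unit of the values, is a transcript's share of all transcripts corrected for its length. The stages were compared in 9 of the 10 genes, those whose 6 samples averaged 1 TPM or more. Of these 9 genes, 7 passed the threshold of 0.05 on the adjusted p, 2 of them higher in adults and 5 lower. Over all 13125 tested genes the share past this threshold was 45.3%, made up of 23.9% higher and 21.4% lower. The balance of directions turned with the scaling, since 3140 genes were higher and 2809 lower in these values, 2613 and 3238 with median-of-ratios scaling, and 3511 and 2528 after rescaling without the 20 most abundant genes. The median log2 fold change was -0.63 among the 9 genes and 0.16 among all tested genes. Tests were made with limma on log2(TPM + 1), and p-values were adjusted by Benjamini-Hochberg over all tested genes. Fold changes are given as log2, adult minus embryonic, and the added 1 understates the change of low genes.

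**Figure D1:**
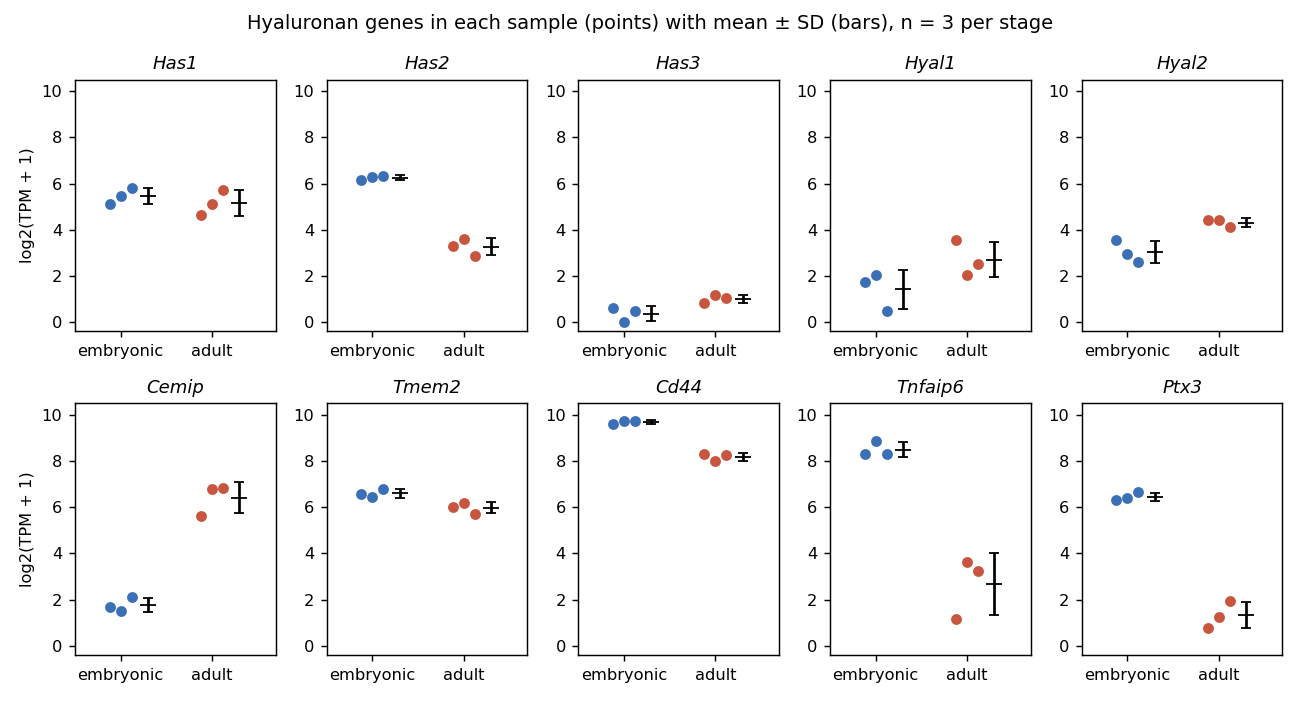
Level of each of the 10 hyaluronan genes as log2(TPM + 1) in the 3 embryonic (blue) and 3 adult (red) samples, with the mean and SD of each stage as black bars. The adult values of *Has2*, *Cd44*, *Tnfaip6* and *Ptx3* all lie below the embryonic ones, those of *Cemip* and *Hyal2* all lie above, and the stages overlap in *Has1*.

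Marker genes were read in the same samples. The sort gate was read by its own transcripts. *Bmpr1b* was at 20.3, 19.03 and 16.4 TPM in the embryos and at 4.51, 18.5 and 13.4 TPM in the adults (limma adjusted p = 0.199). *Alpl*, encoding the alkaline phosphatase that the gate excluded, was higher in adults, at 14.4 to 17.9 TPM against 32.7 to 38.6 TPM, a log2 fold change of 1.13 (limma adjusted p = 0.00292). Of 10 chondrocyte markers 3 were higher and 5 lower in adults, and they summed to 22120 to 23825 TPM in the embryonic samples and 14211 to 17534 TPM in the adults. *Col2a1*, *Acan*, *Sox9* and *Comp* were at 392 TPM or more in every sample. *Col9a1* went from 1913 to 1946 TPM to 27.2 to 64.3 TPM and *Matn3* from 181 to 234 TPM to 1.11 to 3.65 TPM, while *Chad*, encoding chondroadherin, went from 115 to 139 TPM to 4667 to 6557 TPM. Markers of fibroblasts and the synovial lining, led by *Col1a1* and *Col3a1*, summed to 10483 to 12175 TPM in the embryos and 914 to 1875 TPM in the adults, and 6 of the 10 were lower and 1 higher in adults. Leukocyte markers summed to 6.97 to 20.9 TPM in the embryos and 413 to 479 TPM in the adults, and of the 5 tested 3 were higher and 0 lower in adults. *Cd14* made up most of the adult sum at 357 to 458 TPM. *Cd68* was at 4.22 to 12.6 TPM in the embryos and 17.2 to 33.3 TPM in the adults, *Itgam* at 0.399 to 1.04 TPM and 1.37 to 18.2 TPM, and *Lyz2* (limma adjusted p = 0.0642) reached 30.7 TPM in adult replicate 1. *Ptprc*, which encodes CD45 and defines leukocytes, was at 0 to 2.29 TPM and the T cell gene *Cd3e* at 0 in all 6 samples. *Csf1r*, *Adgre1* and *Tyrobp* of that list were at 1.54 TPM or less in every sample. The osteoblast list split into 3 genes higher and 2 lower in adults. *Ibsp* of mineralised matrix was at 0.15 to 29.6 TPM in the embryos and 235 to 316 TPM in the adults. *Dmp1* went the other way, from 10.1 to 16.3 TPM in the embryos to 0.061 to 3.51 TPM in the adults. Endothelial, skeletal muscle and skin markers summed to at most 34.1, 25.4 and 10.9 TPM in any sample, and globin and other erythroid genes to at most 257 TPM. In sorted bulk samples, fewer cells of a type and less RNA per cell cannot be told apart. The part these other cell types have in the differences below was not tested.

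Of the 3 synthases, *Has2* passed the threshold, *Has1* did not and *Has3* was not tested. *Has2*, the synthase most often linked to cartilage and to limb development, lies on chromosome 15 of GRCm38 from 56665627 to 56694539 on the minus strand. It was at 70.3, 77.6 and 79.2 TPM in the embryos and at 8.93, 11.2 and 6.34 TPM in the adults. Every adult sample was far below every embryonic one, and the embryonic samples lay close together. On the log2 scale it fell from 6.26 ± 0.09 (SD, n = 3) to 3.27 ± 0.37 (SD, n = 3), a log2 fold change of -2.99 with a standard error of 0.243 (limma adjusted p = 3.2e-05). The mean TPM in the embryos was 8.56 times that in the adults. In GENCODE M21 the antisense gene *Has2os* shares 182 exon bases with *Has2* on the opposite strand. No source states that strand was used in counting, so reads in that stretch may not have been told apart. *Has2os* was at 10.7, 1.11 and 1.73 TPM in the embryos and at 18.4, 19.9 and 9.79 TPM in the adults.

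*Has1*, on chromosome 17 from 17843323 to 17855205, gave a different picture. It was at 33.5, 42.8 and 55.7 TPM in the embryos and at 23.6, 34.0 and 51.7 TPM in the adults. The ranges of the stages overlapped over most of their width. The log2 fold change was -0.31 with a 95% interval of -0.996 to 0.383 (limma adjusted p = 0.436), so a fall to about the lower bound or a small rise could not be told from no change with 3 samples a stage. *Has3*, on chromosome 8 from 106870242 to 106884566, was at 0.511, 0 and 0.398 TPM in the embryos and at 0.764, 1.26 and 1.03 TPM in the adults. All adult values lay above the embryonic ones, but its mean was under 1 TPM, it was not tested, and no fold change is given. *Has3* also shares 352 exon bases with *Chtf8* on the opposite strand, which was at 64.4 to 69.0 TPM in the embryos and 113 to 130 TPM in the adults.

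The make-up of the synthase transcripts differed between the stages as a result. Since TPM is corrected for length, the 3 genes can be set beside each other within a sample. In the embryonic samples *Has2* held 58.5% to 67.4% of the summed synthase TPM and *Has1* held 32.2% to 41.2%. In the adult samples *Has2* held 10.7% to 26.9% and *Has1* held 70.8% to 87.5%. The stages did not overlap in either share, and *Has1* was the more abundant synthase in all 3 adult samples while *Has2* was in all 3 embryonic samples. The ratio of *Has2* to *Has1* TPM, which a single scaling factor per sample does not change, was 1.78 ± 0.34 (SD, n = 3) in embryos and 0.277 ± 0.136 (SD, n = 3) in adults. The summed synthase TPM was 120 ± 15 (SD, n = 3) and 46.3 ± 12.9 (SD, n = 3). *Has3* held at most 0.49% of the sum in an embryonic sample and at most 2.71% in an adult sample.

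Among the genes of breakdown, *Cemip* stood out. *Cemip*, also known as Kiaa1199 or Hybid, lies on chromosome 7 from 83932857 to 84086502 on the minus strand and is needed for hyaluronan breakdown by cultured fibroblasts. It was at 2.17, 1.83 and 3.29 TPM in the embryos and at 48.7, 111 and 112 TPM in the adults. Adult replicate 1 was the lowest of the adult samples and still far above the embryonic range. The level rose from 1.76 ± 0.31 (SD, n = 3) to 6.42 ± 0.68 (SD, n = 3) on the log2 scale, a log2 fold change of 4.67 with a standard error of 0.375 (limma adjusted p = 3.0e-05). The adult mean TPM was 37.3 times the embryonic one, and 1.13% of all tested genes had a larger absolute log2 fold change. By mean TPM *Cemip* ranked 11289 of 22032 genes in the embryonic samples and 2120 in the adult samples.

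*Hyal2*, encoding a hyaluronidase anchored at the cell surface, lies on chromosome 9 from 107567945 to 107572779. It was at 10.8, 6.67 and 5.01 TPM in the embryos and at 20.4, 20.1 and 16.1 TPM in the adults. The stages did not overlap. *Hyal2* rose by a log2 fold change of 1.28 with a standard error of 0.337 (limma adjusted p = 0.0142), and the call was lost without embryonic replicate 3 (log2 fold change 1.06, adjusted p = 0.0505), the adjusted p spanning 0.0104 to 0.0505 over the alternatives. *Hyal1*, the lysosomal hyaluronidase, neighbours it from 107576927 to 107581710. It was at 2.36, 3.04 and 0.375 TPM in the embryos and at 10.6, 3.16 and 4.79 TPM in the adults. The lowest adult value lay just above the highest embryonic one, and the log2 fold change of 1.30 had a 95% interval of -0.02 to 2.62 (limma adjusted p = 0.0983). *Hyal1* shares 1920 of its 3777 exon bases with *Naa80* on the same strand, which was at 4.66 to 12.3 TPM in the embryos and 18.1 to 26.6 TPM in the adults. This overlap is that of GENCODE M21, and whether the RefSeq annotations used in mapping share it was not checked. If they do, the value of *Hyal1* depends on how RSEM divided the reads of that stretch. The value is therefore uncertain.

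*Tmem2*, a transmembrane relative of *Cemip*, lies on chromosome 19 from 21778342 to 21858360. It was at 93.2, 85.8 and 111 TPM in the embryos and at 63.4, 72.1 and 51.7 TPM in the adults. It moved against *Cemip*, with all adult values below the embryonic ones, though by far less. *Tmem2* fell by 0.63 on the log2 scale with a standard error of 0.176 (limma adjusted p = 0.0188). That call was lost without embryonic replicate 1 (adjusted p = 0.0518), without embryonic replicate 3 (adjusted p = 0.0771) and without limma's trend (adjusted p = 0.0538), and over the alternatives the adjusted p spanned 0.00695 to 0.0771.

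The make-up of these 4 breakdown transcripts was unlike at the 2 stages. *Tmem2* held 85.9% to 92.7% of their summed TPM in the embryos and 28.0% to 44.3% in the adults. *Cemip* held 1.88% to 2.76% in the embryonic and 34.0% to 60.7% in the adult samples. *Cemip* was the most abundant of the 4 in adult replicates 2 and 3, and *Tmem2* in adult replicate 1 and in all embryonic samples. The summed TPM was 108 ± 11 (SD, n = 3) and 178 ± 32 (SD, n = 3), with no overlap between the stages. The proteins differ in where and how they act, so a sum of transcripts is not a measure of breakdown.

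**Figure D2:**
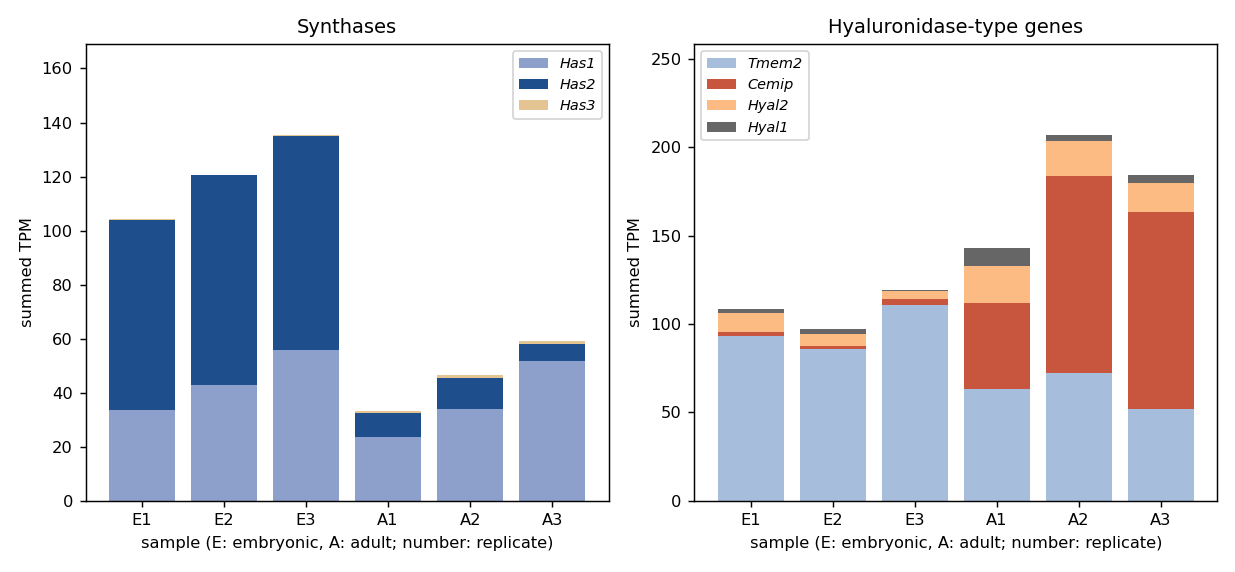
Summed TPM of the 3 synthases (left) and of *Tmem2*, *Cemip*, *Hyal2* and *Hyal1* (right) in each embryonic (E) and adult (A) sample, stacked by gene. *Has2* is the larger share of the synthases in each embryonic sample and *Has1* in each adult sample, while *Cemip* goes from 2.76% or less of the right-hand sum in embryos to 34.0% or more in adults.

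*Cd44*, encoding the main cell surface receptor for hyaluronan, was the most abundant of the 10 genes in every sample and lies on chromosome 2 from 102811141 to 102901665 on the minus strand. It was at 773, 859 and 844 TPM in the embryos and at 317, 253 and 304 TPM in the adults. The spread within a stage was small and the stages lay far apart. *Cd44* fell from 9.69 ± 0.08 (SD, n = 3) to 8.18 ± 0.17 (SD, n = 3), a log2 fold change of -1.51 with a standard error of 0.126 (limma adjusted p = 3.8e-05). By mean TPM it ranked 159 of 22032 genes in the embryonic samples and 498 in the adult samples, so it remained among the abundant transcripts. The annotation lists 9 transcripts of *Cd44*, a gene known for its alternative splicing, and a value per gene does not tell them apart.

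*Tnfaip6* and *Ptx3* fell most of all. *Tnfaip6* lies on chromosome 2 from 52038009 to 52056686, and *Ptx3* on chromosome 3 from 66219910 to 66225805. Both encode secreted proteins that stabilise hyaluronan-rich matrix and that are induced by inflammatory cytokines in many cells. The stretches upstream of their starts are shown with that of *Cemip*, the gene that rose most, because these 3 genes changed most. Sequences are from the RefSeq promoter table of GRCm38.p6, in which 7 of the 10 genes have an entry, and are written 5′ to 3′ on the strand of the gene. Capitals mark matches to a motif, the AP-1 letters TGANTCA in *Tnfaip6* and the TATA box letters TATAAA in *Cemip*. The stretch of *Tnfaip6* runs from -250 to -105 and that of *Ptx3* from -250 to -1, both counted from the RefSeq start, which differs from the GENCODE start given above, and 30 bases are shown for *Cemip*.
Tnfaip6, chr2:52037863-52038008, plus strand: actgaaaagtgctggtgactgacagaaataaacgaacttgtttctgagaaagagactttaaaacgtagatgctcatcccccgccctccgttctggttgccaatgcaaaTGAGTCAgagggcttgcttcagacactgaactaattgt
Ptx3, chr3:66219637-66219886, plus strand: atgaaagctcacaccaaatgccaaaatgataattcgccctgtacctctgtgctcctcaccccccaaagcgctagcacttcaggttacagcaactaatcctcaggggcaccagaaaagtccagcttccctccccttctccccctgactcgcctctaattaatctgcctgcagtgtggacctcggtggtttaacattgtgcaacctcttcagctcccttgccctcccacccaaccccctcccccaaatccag
Cemip, chr7:84086517-84086546, minus strand: ccggaaggcgacTATAAAaagcgtcggctc

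In the 250 bases upstream of the RefSeq start, *Tnfaip6* held TGANTCA from -142 to -136 and *Cemip* held TATAAA from -29 to -24, counted from the start site. Of all 32851 promoters in the table, 6.75% held TGANTCA and 12.4% held TATAAA in the same window on either strand. The consensus of NF-kappaB was found in 3.90% of promoters, and among the 7 genes in *Hyal2* alone. *Ptx3* held none of these motifs in this window. A match of letters is a description and no measure of binding.

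*Tnfaip6* was at 313, 468 and 316 TPM in the embryos and at 1.20, 11.5 and 8.32 TPM in the adults. The adult samples differed among themselves, with adult replicate 1 the lowest, yet none came near the embryonic range. It fell from 8.49 ± 0.33 (SD, n = 3) to 2.67 ± 1.34 (SD, n = 3), a log2 fold change of -5.83 with a standard error of 0.560 (limma adjusted p = 7.8e-05). The embryonic mean TPM was 52.2 times the adult one. By mean TPM *Tnfaip6* ranked 419 of 22032 genes in the embryonic samples, second among the 10 genes after *Cd44*, and 9621 in the adult samples. Among all tested genes 0.503% had a larger absolute log2 fold change.

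*Ptx3* was at 78.4, 84.5 and 99.7 TPM in the embryos and at 0.717, 1.39 and 2.78 TPM in the adults. Its adult values were near the lower end of what was tested. It fell from 6.46 ± 0.18 (SD, n = 3) to 1.32 ± 0.57 (SD, n = 3), a log2 fold change of -5.14 with a standard error of 0.342 (limma adjusted p = 1.1e-05). The embryonic mean TPM was 53.7 times the adult one, close to the ratio of *Tnfaip6*. The fibroblast markers *Dpt*, *Clec3b* and *Cd34* moved the same way, from 166 to 222, 111 to 159 and 168 to 232 TPM in the embryonic samples to 11.1 to 24.5, 5.81 to 9.55 and 54.9 to 60.6 TPM in the adults. *Pdgfra* and *Pdpn* of the same list had limma adjusted p-values of 0.243 and 0.258, with 145 to 258 and 220 to 477 TPM in the adults. *Clic5* of that list was higher in adults by 1.36 on the log2 scale (limma adjusted p = 0.0485), and *Thy1* had a limma adjusted p of 0.514. The part of fibroblast-like cells in the fall of *Tnfaip6* and *Ptx3* was not tested.

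**Figure D3:**
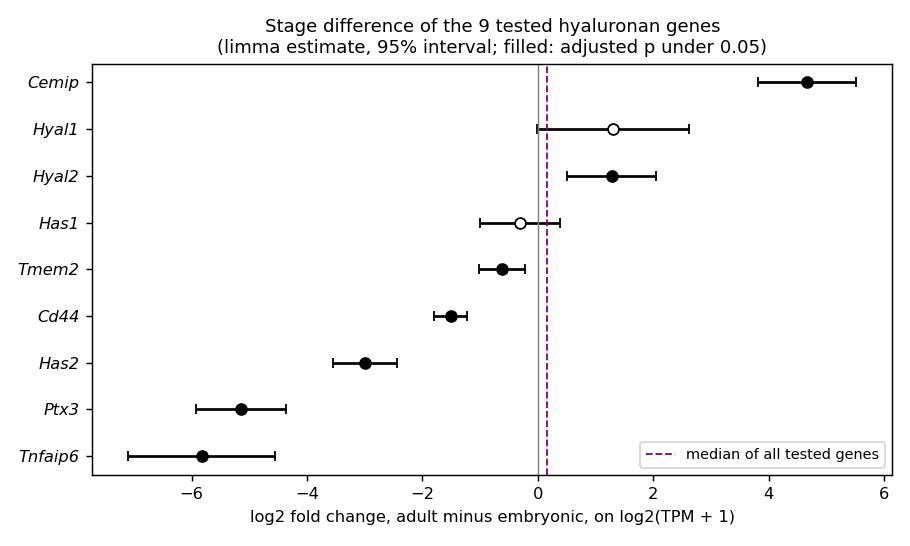
Log2 fold change (adult minus embryonic, on log2(TPM + 1)) of the 9 tested hyaluronan genes with its 95% interval, filled where the limma adjusted p is under 0.05. *Tnfaip6* at -5.83, *Ptx3* at -5.14 and *Has2* at -2.99 lie at the low end and *Cemip* at 4.67 at the high end, and the intervals of *Has1* and *Hyal1* reach across 0.

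Both genes are known to be induced by cytokines, so a list of 20 early response and cytokine-induced genes was read beside them. Of the 19 tested, 6 were higher and 5 lower in adults, 57.9% in all, beside 45.3% of all tested genes. The median log2 fold change was 0.17, beside 0.16 for all tested genes. *Atf3* fell from 9.35 ± 0.07 to 6.80 ± 0.40 and *Ptgs2*, the inducible cyclooxygenase, from 7.28 ± 0.24 to 6.02 ± 0.13 (SD, n = 3, log2 scale). *Ccl2*, a chemokine gene, fell by 1.97. The largest change and the highest adult level of the list were those of *Mmp3*, encoding the matrix metalloproteinase stromelysin, at 7.76, 7.58 and 13.2 TPM in the embryos and at 6516, 4182 and 7697 TPM in the adults, a log2 fold change of 9.19 (limma adjusted p = 1.1e-07). *Icam1*, an adhesion molecule induced by NF-kappaB, rose by 2.36 on the log2 scale and *Sod2* by 1.97. *Il6* was at 19.4, 19.6 and 29.3 TPM in the embryos and at 13.2, 17.7 and 64.2 TPM in the adults. *Fos* and *Egr1*, which respond within minutes to tissue handling, were at 412 TPM or more in every sample. *Fos* had a log2 fold change of 0.32 (limma adjusted p = 0.0624) and passed the threshold with quantile normalization (0.00777), after rescaling without the 20 most abundant genes (0.0217) and without adult replicate 1 (0.0473). *Egr1* had a log2 fold change of -0.20 (limma adjusted p = 0.331). Other early response genes differed, with *Fosb* at -1.29 (limma adjusted p = 2.7e-04) and *Jun* at -0.93 (limma adjusted p = 0.00417). *Junb* was at 0.75 (limma adjusted p = 9.9e-04). Changes in the list ran in both directions, and a link of the fall of *Tnfaip6* and *Ptx3* to cytokine or early responses was not tested. How digestion and sorting bear on these levels was not tested.

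Beyond the 10 genes, 36 others of the pathway in 7 lists by role were read. Of the 22 tested, 4 rose and 7 fell in adults, and the other 14 had a mean under 1 TPM. Over all tested genes 45.3% were called, 23.9% higher and 21.4% lower, so the counts alone do not set these genes apart. The median log2 fold change was 0.01 among the 22 and 0.16 among all tested genes. The enzymes that make the UDP-sugars moved little. Of 7 tested, 1 passed the threshold, *Ugdh*, which makes UDP-glucuronic acid, at 565, 563 and 589 TPM in the embryos and at 315, 392 and 403 TPM in the adults, a log2 fold change of -0.64 (limma adjusted p = 0.00402). It was also the most abundant of the list. The other 6 had log2 fold changes between -0.40 and 0.22, with *Ugp2* at -0.40 (limma adjusted p = 0.0579) passing the threshold with median-of-ratios scaling (0.0175), without embryonic replicate 1 (0.0477) and without adult replicate 3 (0.0408), and over the alternatives the adjusted p spanned 0.0175 to 0.179.

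Among lysosomal exoglycosidases that trim hyaluronan fragments, *Hexa* rose, while *Gusb* had a log2 fold change of -0.29 (limma adjusted p = 0.19). *Hexa* went from 81.2, 87.0 and 77.2 TPM to 127, 112 and 152 TPM, a log2 fold change of 0.66 (limma adjusted p = 0.00786). Of the 5 further hyaluronidase genes, *Hyal3* alone was tested and had a log2 fold change of 0.91 (limma adjusted p = 0.227). *Hyal4*, *Hyal5* and *Spam1* were listed at 0 in all 6 samples.

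Among the other receptors, *Layn*, which encodes the hyaluronan-binding membrane lectin layilin, rose. It was at 14.9, 18.2 and 20.02 TPM in the embryos and at 273, 301 and 279 TPM in the adults, a log2 fold change of 3.94 with a standard error of 0.159 (limma adjusted p = 8.2e-07). The stages lay far apart and the spread within each was small. Set beside *Cd44* in the same sample, *Cd44* TPM was 42.2 to 52.0 times that of *Layn* in the embryonic samples and 0.840 to 1.16 times in the adult samples. *Hmmr*, which encodes the hyaluronan-binding protein RHAMM and is also a spindle gene of dividing cells, fell by 2.46 (limma adjusted p = 0.00152). *Lyve1* and *Stab2*, receptors of lymphatic and sinusoidal endothelium, were at 2.65 TPM or less in every sample and were not tested.

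The 3 ERM proteins link the tail of CD44 to actin, and their transcripts changed in opposite directions. *Ezr* was at 332, 311 and 268 TPM in the embryos and at 61.1, 67.9 and 71.6 TPM in the adults, a log2 fold change of -2.16 (limma adjusted p = 8.9e-06). *Msn* went the other way, from 243, 267 and 269 TPM to 609, 563 and 583 TPM, a log2 fold change of 1.17 (limma adjusted p = 7.2e-05). *Rdx* fell by 0.59 (limma adjusted p = 0.00388). The sum of the 3 was 771 to 790 TPM in the embryos and 773 to 819 TPM in the adults.

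The proteins that hang on hyaluronan, or are fixed to it, also split. The large proteoglycan versican gene *Vcan* was at 165, 121 and 165 TPM in the embryos and at 17.4, 39.5 and 40.6 TPM in the adults, a log2 fold change of -2.25 (limma adjusted p = 5.5e-04). *Hapln1*, encoding cartilage link protein, fell by 0.72 (limma adjusted p = 8.8e-04), from 541 to 604 TPM to 345 to 355 TPM. *Acan* was the most abundant of the list at 1018 to 1306 TPM in the embryos and 1265 to 2672 TPM in the adults, a log2 fold change of 0.61 (limma adjusted p = 0.0717). It passed the threshold with quantile normalization (0.0206), after rescaling without the 20 most abundant genes (0.0437) and without adult replicate 1 (0.0104), and over the alternatives the adjusted p spanned 0.0104 to 0.221. Of the genes of the inter-alpha-inhibitor family, *Itih5* fell by 2.73 (limma adjusted p = 1.5e-04) and *Itih2* rose by 2.71 (limma adjusted p = 0.00168). *Itih5* was at 97.1, 108 and 94.4 TPM in the embryos and at 8.66, 21.8 and 14.9 TPM in the adults, and *Itih2* at 3.01, 1.64 and 0.48 TPM and at 11.8, 16.9 and 18.3 TPM. *Itih1*, *Itih3* and *Ambp*, the gene of the light chain, were listed at 0 in all 6 samples.

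**Figure D4:**
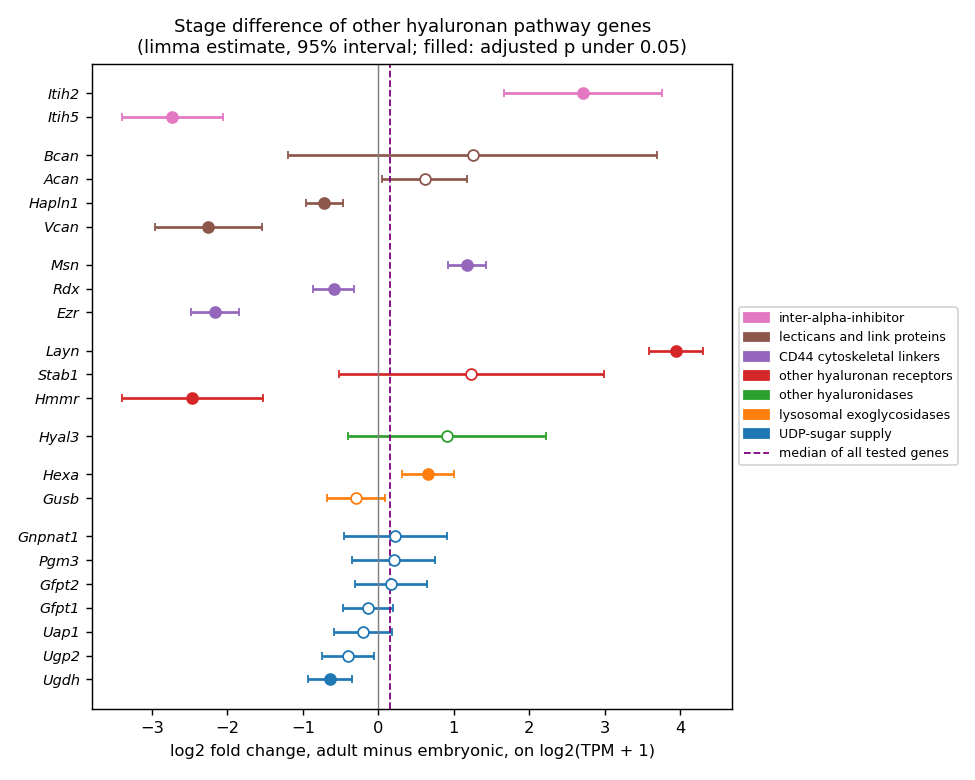
Log2 fold change (adult minus embryonic, on log2(TPM + 1)) of the 22 tested pathway genes in 7 lists, coloured by list, with the 95% interval and filled where the limma adjusted p is under 0.05. The UDP-sugar enzymes lie within -0.64 and 0.22, while *Layn* at 3.94 and *Itih5* at -2.73 mark the ends of the range.

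Within a stage the 10 genes did not vary as 1 block. Adult replicate 1 was the lowest of the adult samples in *Has1*, *Cemip*, *Tnfaip6*, *Ptx3* and *Has3* and the highest in *Hyal1*, *Hyal2* and *Cd44*. It also had the lowest *Bmpr1b* of the adult samples and the highest *Cd68*, *Itgam* and *Lyz2*. *Cd14*, the most abundant of the leukocyte markers, went the other way and was lowest there, at 357 TPM against 458 and 364 TPM. Of the others of that list, *Laptm5*, *Ptprc*, *Tyrobp* and *Adgre1* were also highest there, at 5.92, 2.29, 0.322 and 0.162 TPM. *Csf1r* was not, at 0.304 TPM against 1.10 and 0.168 TPM, and *Cd3e* was at 0 in all samples. The part of leukocytes in these differences was not tested. With adult replicate 1 left out, 2 of the 9 tested genes were called higher and 5 lower in adults. Over all 13115 genes tested in that setting, 2839 were called higher and 2596 lower. The stages did not overlap in 8 of the 9 tested genes, *Has1* being the exception, with the adults above in 3 and below in 5. Over all tested genes the stages did not overlap in 56.5%, with the adults above in 30.7% and below in 25.9%. Each of the 9 fold changes kept its direction when the samples were scaled by the median of ratios, by quantiles, or without the 20 most abundant genes. These scalings moved the median log2 fold change of all genes to between 0.03 and 0.25, and *Has2* lay between -3.13 and -2.90, *Cemip* between 4.53 and 4.75 and *Cd44* between -1.65 and -1.31 under them.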

How the data were processed

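RNA-seq was measured in 3 embryonic and 3 adult mouse samples as single-end reads. Per the study's methods, the authors mapped reads to GRCm38 (mm10) with RefSeq annotations, estimated transcript levels with RSEM (version not given in the sources used here) and deposited log2(TPM + 1) per gene. These log2 values keep no sequencing depth, so precision rests on the spread between 3 samples a stage, drawn by limma towards a trend over all tested genes. Of 22032 identifiers, 21902 had a symbol in GENCODE M21, and *Tmem2* was matched through RefSeq synonyms. Positions and shared exon bases are those of GENCODE M21 (GRCm38). A listed 0 is not proof of absence, since 6 zeros stood beside values of 20 TPM or more in both other samples of the stage.

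Stages were compared with limma 3.58.1 in R 4.3.3 (lmFit, eBayes with trend, stage only, two-sided) on the deposited log2(TPM + 1). Genes averaging under 1 TPM across the 6 samples were left out, and p-values of the 13125 others were adjusted by Benjamini-Hochberg and called under 0.05. EBSeq, named in the methods, was not used here. The alternatives were a pseudocount of 0.1, other filters, scalings and eBayes options, a threshold of 0.01, the replicate number as a block and each sample left out. The members and lists were chosen with earlier results of these data known. Every member is named. Of each pathway list, those named are at most the 4 largest changes past the threshold and the most abundant gene, and the others named were chosen after their values were seen. Genes of a list that are not named enter its counts, except 1 gene that was left out of the lists and is not reported here. Other steps used Python 3.11.15 with pandas 2.3.3 and matplotlib 3.10.9.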

Additional observations from a re-analysis of the deposited data

How the results depend on the processing

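With a threshold of 0.01 in place of 0.05 on the adjusted p, 3718 genes were called in place of 5949, and 5 of the 9 tested hyaluronan genes in place of 7, *Hyal2* and *Tmem2* being the ones lost. No other alternative moved the count over all genes by more than 1.5 times. The count of hyaluronan genes called was 7 in 12 of the 16 alternatives and 5 or 6 in the others, and no tested hyaluronan gene changed direction in any of them. Leaving out single samples gave counts between 5 and 7. Over all alternatives the log2 fold change lay between -3.16 and -2.80 for *Has2*, 4.47 and 5.11 for *Cemip*, -6.31 and -5.06 for *Tnfaip6* and -5.84 and -4.87 for *Ptx3*. *Has1* lay between -0.59 and -0.04 and was called in none. *Hyal1* had a mean under 5 TPM and gave no value under that filter. Samples of the 2 stages share replicate numbers only: the deviations of same-numbered samples from their stage means correlated at -0.009, -0.017 and -0.022 across genes. With the replicate number as a block 5430 genes, 7 hyaluronan genes and 21 in place of 22 genes of the 8 lists were called. Of the other list genes, *Stab1* and *Tnfaip3* passed the threshold in 1 alternative each, and *Cxcl1* lost its call in 4 and *Nfkbia* in 10 of the 16. TPM keeps no depth, and read totals that the paper gives elsewhere were not used. No counting error is therefore given here for low values such as those of *Has3*, *Hyal1* and adult *Ptx3*. P-values rest on the spread between these samples, which limma drew towards a trend over all tested genes. They measure no other variation.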
